A study of Mus musculus with 5 samples.

Results

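Forkhead (Fox) genes encode transcription factors, and 41 of them were measured here by 58 probes, of 28770 gene names and 41174 probes on the array. A probe was counted as forkhead when its gene name in the files, or the current symbol of its accession, was Fox followed by a letter from a to s and a number. RefSeq lists 44 protein-coding genes of that form, and 3 of them, Foxi3, Foxr1 and Foxr2, had no probe under this rule. Symbols came from the accession for 46 probes and from the file's own symbol for 11. The remaining probe, named Foxo3a in the files, was counted as Foxo3. A total of 11 genes had more than 1 probe, and such probes share a transcript and are not replicates.

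Forkhead proteins share a winged-helix domain that binds variants of the DNA core TGTTTAC. Foxa1, Foxa2 and Foxa3 bind at liver genes, and Foxa1 and Foxa2 together are needed to specify liver from foregut endoderm. Foxa genes are common choices for turning other cells into hepatocyte-like cells. Other classes act elsewhere: Foxc and Foxf genes in mesenchyme, Foxo proteins below insulin and Akt signalling, Foxm1 in mitosis and Foxj1 in motile cilia.

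RNA from 5 mouse cell lines was hybridised to Agilent one-colour whole-genome arrays. The hepatic progenitor cells (HPC) were the lines HB1, from C57BL6J mice, and HNG2, from STOCK Tg(Nanog-GFP, Puro)1 Yam mice, both taken from E13.5 fetal liver. The neural progenitor cell (NPC) array is the line NSBAg2, derived from the embryonic stem cell line BAg73C2, whose Afp gene carries a beta-geo cassette that gives resistance to the drug G418. The induced hepatic progenitor cells (iHPC) are NSBAg2 cells infected with pMXs retroviruses for 9 transcription factors (9F) or 10 (10F), placed in G418 at 3 weeks and harvested after 1 week in the drug. All iHPC therefore carry the Afp cassette of their parent and were selected through Afp, which the HPC lines were not. Which factors the viruses carried, and whether any is a forkhead gene that these probes would also detect, is not given in the sources used here.

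Each level is a log2 signal minus that of its array's 75th percentile, and values are given in the order HB1, HNG2, 9F, 10F, NPC. A spot counted as detected when the scanner software marked it well above background, which held for 58.9% to 65.6% of the non-control spots of each array. None of the spots was saturated. Probe positions are those of the files, on build mm7, and their place within exons is not given because no annotation of that build was used here. With 2, 2 and 1 arrays per group the number of arrays limits the precision, and the p-values rest on how far HB1 lay from HNG2 and 9F from 10F, since no label calls these repeat cultures. The arrays were scanned on 3 days, HB1 and HNG2 on a day each and the iHPC and NPC arrays together on the third, so scan day and cell type cannot be told apart for HPC. All 8 hepatic progenitor markers were detected on the HPC and iHPC arrays and 4 of 8 on the NPC array, where Afp and Alb were not. Of the 7 neural progenitor markers, 4 and 5 were detected on the HPC arrays, 5 on each iHPC array and 6 on NPC. Their summed signals were 107.1, 91.9, 72.3, 61.1 and 94.2 times the 75th percentile. Vim was the highest tested marker on each array (5.74 to 6.72). Among 6 tested, 0 were called higher and 2 lower in iHPC than in NPC, Sox2 (-4.86) and Pax6 (-1.96; limma adjusted p = 0.0338 and 0.0438). The same 2 were called lower in HPC than in NPC. Of all genes, 2.85% and 8.98% were called lower in these comparisons. Sox2 (fitted 4.34, at least 4.97-fold over the HPC detection floor) and Pax6 (1.84) were called higher in iHPC than in HPC. The limma adjusted p was 0.0301 and 0.0360, and 3.55% of all genes were called higher there. Sox2 was not detected in HPC. Nes was higher in iHPC (2.66 and 2.87) than in NPC (1.18), without a call (adjusted p = 0.237). The NPC array also carried the mesenchymal markers, all 7 detected, with a summed signal of 197.0 times the 75th percentile against 0.18 to 3.61 on the other arrays. In bulk RNA, fewer cells of a type and less RNA per cell cannot be told apart.

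The sequences upstream of 6 members described below are shown because they hold the Foxa trio, the neighbours Foxc1 and Foxf2, which were called in opposite directions, and Foxd1, which was higher on both iHPC arrays than on any other. They are the 250 bases before the RefSeq start (assembly GRCm38.p6), 5′ to 3′ on the gene's strand. Capitals mark the forkhead core TGTTTAC, the TATA box TATAAA and the CCAAT box CCAAT, searched on both strands, so that a match on the other strand reads GTAAACA or ATTGG. No matches overlapped. Foxa2 has 3 listed starts and the most upstream is shown.
Foxa1 (chr12:57546112-57546361, minus strand): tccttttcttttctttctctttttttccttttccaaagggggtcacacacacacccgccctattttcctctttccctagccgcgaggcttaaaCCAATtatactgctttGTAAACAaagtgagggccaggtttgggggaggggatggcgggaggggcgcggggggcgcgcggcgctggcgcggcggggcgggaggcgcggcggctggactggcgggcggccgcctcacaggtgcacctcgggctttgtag
Foxa2 (chr2:148046970-148047219, minus strand): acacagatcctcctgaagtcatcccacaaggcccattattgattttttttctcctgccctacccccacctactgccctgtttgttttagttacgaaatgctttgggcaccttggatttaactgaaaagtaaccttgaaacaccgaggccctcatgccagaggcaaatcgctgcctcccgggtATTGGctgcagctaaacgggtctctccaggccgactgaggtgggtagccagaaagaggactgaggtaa
Foxa3 (chr7:19023540-19023789, minus strand): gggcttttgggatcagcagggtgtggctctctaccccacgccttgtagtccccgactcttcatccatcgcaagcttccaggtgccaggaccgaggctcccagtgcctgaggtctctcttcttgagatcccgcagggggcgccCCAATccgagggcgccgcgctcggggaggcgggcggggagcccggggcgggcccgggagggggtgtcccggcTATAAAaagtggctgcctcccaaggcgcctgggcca
Foxc1 (chr13:31806396-31806645, plus strand): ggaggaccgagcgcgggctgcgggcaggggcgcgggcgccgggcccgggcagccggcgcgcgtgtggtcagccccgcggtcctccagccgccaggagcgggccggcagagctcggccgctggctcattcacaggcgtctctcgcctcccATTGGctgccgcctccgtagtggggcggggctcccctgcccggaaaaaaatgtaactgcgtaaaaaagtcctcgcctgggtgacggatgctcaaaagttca
Foxd1 (chr13:98353995-98354244, plus strand): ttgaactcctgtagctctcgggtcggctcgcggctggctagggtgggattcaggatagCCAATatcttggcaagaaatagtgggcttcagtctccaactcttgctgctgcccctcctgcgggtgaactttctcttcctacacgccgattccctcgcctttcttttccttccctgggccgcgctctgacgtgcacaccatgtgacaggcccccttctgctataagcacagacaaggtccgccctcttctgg
Foxf2 (chr13:31625566-31625815, plus strand): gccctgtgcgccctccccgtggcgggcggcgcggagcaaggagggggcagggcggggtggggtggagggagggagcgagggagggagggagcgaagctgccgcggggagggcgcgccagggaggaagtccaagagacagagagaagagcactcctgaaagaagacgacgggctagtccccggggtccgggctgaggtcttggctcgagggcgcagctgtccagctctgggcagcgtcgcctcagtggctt
The forkhead core lay 141 to 135 bases before the start of Foxa1, on the other strand, and was in none of the other 5 sequences. Foxa1 also had a CCAAT box 157 to 153 bases before its start. Foxa3 had a TATA box at 36 to 31 bases and a CCAAT box at 108 to 104 bases before the start. CCAAT boxes were also found upstream of Foxa2, Foxc1 and Foxd1, and no marked letters were found in the Foxf2 window. Of 32851 promoters in the RefSeq table, 3.17% held the core, 12.4% the TATA box and 33.8% the CCAAT box. Of 30 forkhead promoters, belonging to 25 genes, 1 held the core, 3 the TATA box and 14 the CCAAT box. The forkhead promoters had a median GC content of 62.4% against 52.4% over all promoters, and a median of 16.5 CG pairs against 6. These matches describe the letters of the windows and nothing was measured about binding to them.

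Most forkhead genes were detected on at least 1 array. A total of 20 forkhead genes (48.8%) were detected on all 5 arrays, against 52.5% of all gene names, 15 on some arrays and 6 on none (14.6% against 26.1%). Per array, 30, 30, 26, 23 and 29 of the 41 genes were detected. The 6 that no array detected were Foxb1, Foxe1 (thyroid), Foxi1 (proton-secreting epithelium), Foxl1 (gut mesenchyme), Foxn4 (retinal progenitors) and Foxp3 (regulatory T cells). Foxd4, Foxf1 and Foxn1, the thymic epithelial factor, were detected on 1, 1 and 2 arrays but on no complete group. These 9 genes were not tested, which leaves 32.

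Counted by the detection flag alone, complete splits between groups ran mostly away from iHPC. Foxd1 was detected on both iHPC arrays and not on NPC, 1 of 41 genes against a background of 2.59% of all gene names. The reverse held for 5, Foxa3, Foxb2, Foxj1, Foxl2 and Foxp2 (background 3.83%). Detected on both HPC arrays and neither iHPC array were 6, namely Foxa1, Foxa3, Foxd3, Foxj1, Foxl2 and Foxp2 (background 3.1%). The reverse was shown by 0 (background 1.19%). Foxa1, Foxa3, Foxd3 and Foxl2 lay lower on both iHPC arrays than on either HPC array. Foxj1 and Foxp2 overlapped in level, with Foxp2 at -5.09 on 10F against -5.43 and -6.30 in HPC. Foxj1 was at -5.60 on the other iHPC array against -5.66 on HB1. The lowest detected level also differed, at -5.99 and -6.62 on the HPC arrays and -5.67 and -5.19 on the iHPC arrays. Between HPC and NPC, Foxa1 and Foxd3 were detected in HPC alone (background 4.92%) and Foxb2 and Foxi2 in NPC alone (background 3.02%). The 10F array had the fewest detected spots of the 5, with 58.9%, and its part in these counts was not tested.

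**Figure D1:**
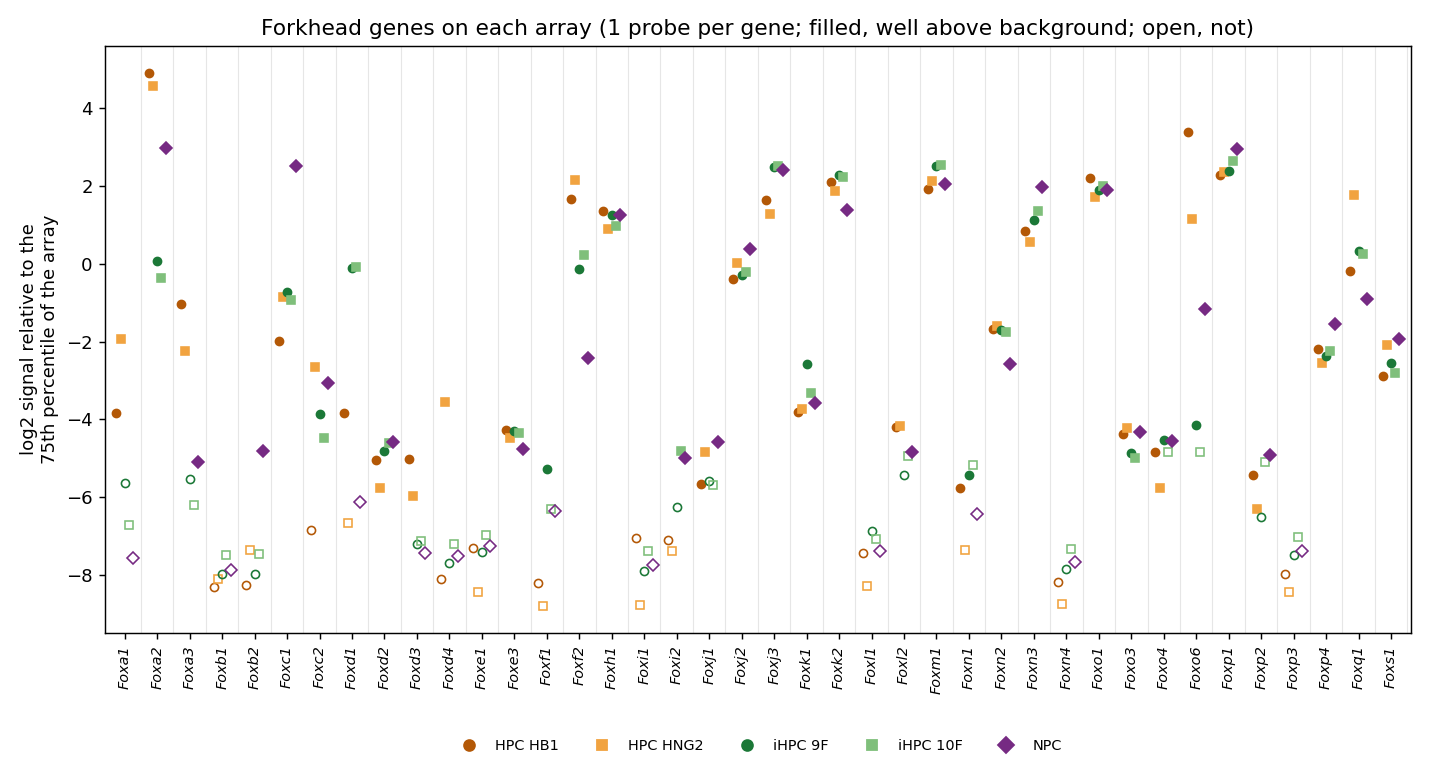
Level of 40 of the 41 forkhead genes on the 5 arrays, as log2 signal relative to the array's 75th percentile, with 1 probe per gene. Filled symbols were well above background and open symbols were not. Foxa2 lay between -0.36 and 0.07 in iHPC and at 2.98 or more on the other arrays, and Foxd1 was at -0.12 and -0.10 in iHPC and at -3.84 or lower elsewhere.

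Few forkhead genes passed the test in any comparison. Against NPC, 1 of 32 differed in iHPC (limma, Benjamini-Hochberg adjusted p under 0.05), Foxa2, which was lower. The background was 5.65% of 19308 genes, 2.8% higher and 2.85% lower. Against HPC, 3 fell in iHPC and 0 rose, namely Foxa2, Foxa3 and Foxo6, where 5.43% of all genes were called, 3.55% higher and 1.88% lower. Between HPC and NPC, Foxf2 was higher in HPC and Foxc1 and Foxb2 were lower, 3 of 32 against a background of 15.7% (6.68% higher and 8.98% lower). At an unadjusted limma p under 0.05 the counts were 8, 11 and 13 of 32 (25%, 34.4% and 40.6%), against 24.4%, 27.6% and 36.4% of all genes. Foxb2 passed the detection filter through the NPC array alone, where it is high, so it had to differ from a group where it is low, and its call is given as a description. The same holds for Foxa1 and Foxd3, which passed through HPC alone, Foxd1, through iHPC, and Foxi2, through NPC. The family's share of calls was below the background in the first and last comparison and above it in the second, and no test compared the family with the rest of the array.

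The family's median log2 difference was -0.39 for iHPC against NPC, 0.01 for iHPC against HPC and -0.13 for HPC against NPC, and over all genes it was 0.03, 0.05 and -0.03. With groups that no array detected held at their detection floor, the first of these medians was -0.30. The difference was at least 1 on the log2 scale for 11, 10 and 12 of the 32 genes (34.4%, 31.2% and 37.5%), against 29.5%, 27.1% and 42.3% of all genes. The groups did not overlap for 29, 19 and 25 of the 32 genes, while the background was 89%, 62.8% and 80%. Leaving out an array moved the calls of the whole array, forkhead genes included. With either 9F or 10F left out, HB1 and HNG2 alone set the spread, and no gene, forkhead or other, was called in any comparison. Without a filter on dim probes, which adds genes to the adjustment, Foxa2 against HPC and Foxf2 still passed, and the other 5 calls had adjusted p from 0.0501 to 0.0680. With HB1 or HNG2 left out, 12 of 32 were called against NPC in iHPC (35% of all genes in both fits), 14 or 9 against HPC (36.2% or 36.1%), and 16 or 19 between HPC and NPC (49.4% or 50.6%).

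**Figure D2:**
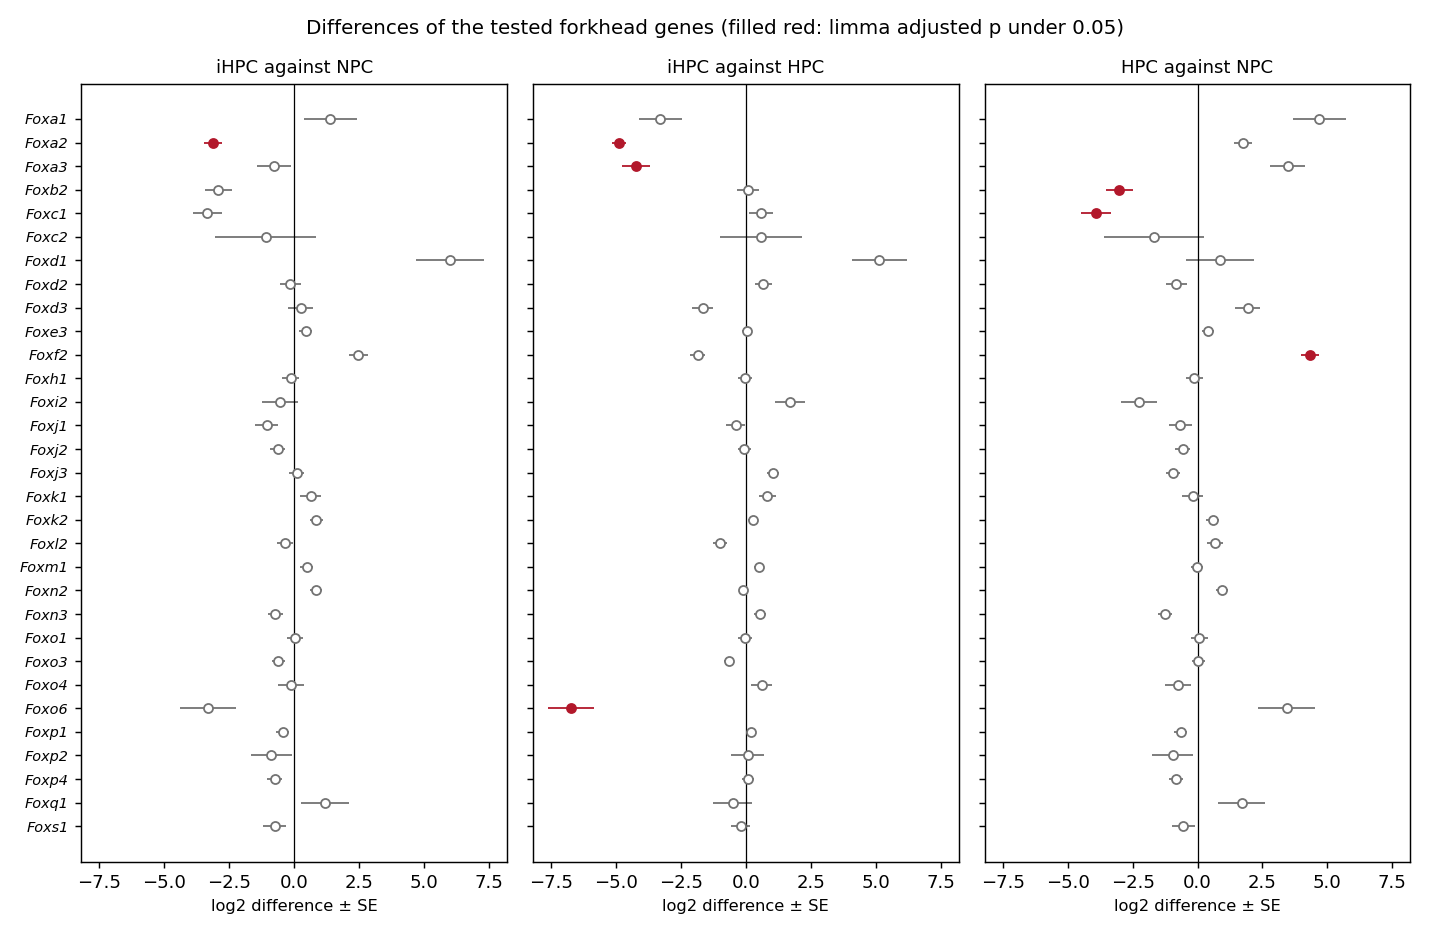
Log2 difference with its standard error for 31 of the 32 tested forkhead genes in the 3 comparisons, the left group minus the right. Red points passed a limma adjusted p of 0.05, namely Foxa2 in the first panel, Foxa2, Foxa3 and Foxo6 in the second, and Foxb2, Foxc1 and Foxf2 in the third.

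Foxa2, a pioneer factor of endoderm and liver, gave levels of 4.91, 4.56, 0.07, -0.36 and 2.98 (probe at chr2:147783819-147783878, build mm7). It was detected on every array, was highest in both HPC lines, and was lower in both iHPC arrays than in the neural line they came from. The groups did not overlap. Against HPC the iHPC mean fell by 4.88 ± 0.28 (SE) on the log2 scale, 29.4-fold (limma adjusted p = 0.0183), and with 9F or 10F left out the difference was -5.09 or -4.67 (adjusted p = 0.188 and 0.200). Against NPC it fell by 3.13 ± 0.34, 8.74-fold (limma adjusted p = 0.0350), and -3.34 or -2.91 with 9F or 10F left out (adjusted p = 0.257 and 0.269). On the slide that 10F shared with NPC the difference was -3.34. HPC against NPC gave 1.75 ± 0.34 (limma adjusted p = 0.0519). The probe was printed 10 times on each array, and the SD between those spots was 0.029 to 0.057 on the log2 scale.

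Foxa3, which binds many of the same liver genes, gave -1.04, -2.24, -5.54, -6.19 and -5.10 (chr7:16696078-16696137, mm7). HB1, HNG2 and NPC were detected, and neither iHPC array was well above background. Foxa3 was at least 13.3-fold lower in iHPC than in HPC, where a bound compares the mean of the detected arrays with the detection floor of the undetected ones, or with their own signal if higher. The fitted difference was -4.23 ± 0.54 (SE; limma adjusted p = 0.0450), and -4.56 or -3.90 with 9F or 10F left out (adjusted p = 0.258 and 0.303). Without HB1 or HNG2 it was -3.63 or -4.83. Under normexp background correction, which adds an offset of 50 to the signal, it was -1.80 (adjusted p = 0.0576), smaller than the bound. Against NPC, iHPC were at least 1.20-fold lower (difference -0.76, adjusted p = 0.565), and HPC were higher than NPC by 3.47 (adjusted p = 0.0506).

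Foxa1, the remaining member of the trio, gave -3.84, -1.92, -5.63, -6.72 and -7.57 (chr12:55476083-55476142, mm7). The HPC arrays alone were well above background, and HNG2 was the higher of them by 1.91. HPC were at least 6.56-fold higher than NPC (fitted 4.69 ± 1.02, limma adjusted p = 0.0635) and iHPC at least 5.79-fold lower than HPC (fitted -3.30 ± 0.83, adjusted p = 0.118), and neither passed. Foxa1 passed the detection filter through HPC alone, so its differences are given as a description. Without HB1 or HNG2, HPC minus NPC was 5.65 or 3.73 and iHPC minus HPC -4.25 or -2.34. Under normexp correction these differences were 1.13 and -0.90 (adjusted p = 0.206 and 0.238), smaller than the bounds, which hold for the deposited signal scale alone. All 3 Foxa genes were thus higher on both HPC arrays than on both iHPC arrays, and 2 of the 3 passed the test.

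**Figure D3:**
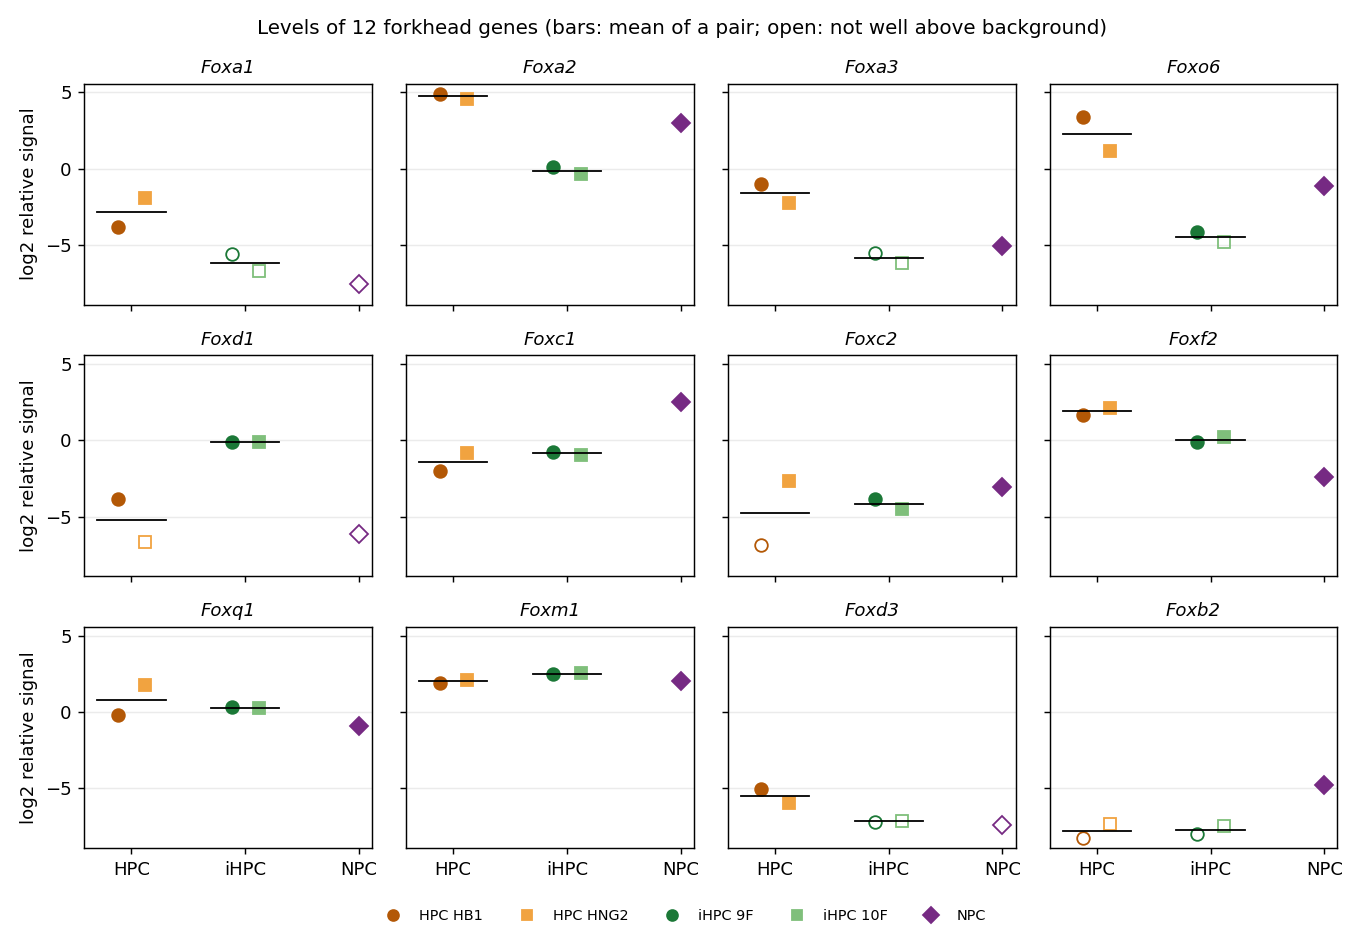
Levels of 12 forkhead genes on each array (log2 signal relative to the array's 75th percentile), with a bar at the mean of the HPC and of the iHPC pair. Open symbols were not well above background. The Foxa genes and Foxo6 lay lower in iHPC than in HPC, Foxd1 lay higher in iHPC (-0.12 and -0.10) than on the other arrays, and Foxc1 was highest on the NPC array (2.50).

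The tested liver genes listed from background knowledge as bound by Foxa proteins were detected on both iHPC arrays. Their dependence on Foxa was not tested. The list held 17 genes, of which 15 were tested, and it was chosen with earlier results of these data known. Against NPC, 11 rose in iHPC and 0 fell, with a median difference of 8.77, or 6.92 with undetected groups at their floor, where the median of all genes was 0.03 and 2.8% of them rose. Fgb, a fibrinogen chain, stood at least 13663-fold above NPC (limma adjusted p = 0.0301). For Apoa1, the main protein of HDL particles, the bound was 5404-fold, for Afp 4721-fold and for Alb 588-fold (adjusted p = 0.0285, 0.0336 and 0.0394). Afp was the selected locus. The same list against HPC gave 2 higher and 2 lower with a median of 1.50, where 3.55% of all genes were higher and 1.88% lower. Cps1, of the urea cycle, rose by 5.60 and Igfbp1, an insulin-responsive secreted protein, by 5.27, while Apob, the main protein of VLDL particles, fell by 4.90 (adjusted p = 0.0290, 0.0183 and 0.0193). In HPC against NPC, 10 were higher and 0 lower, where 6.68% of all genes were higher and 8.98% lower. Afp was at least 1075-fold and Apoa1 at least 563-fold higher. The comparisons share arrays and are not independent.

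Foxo6, the Foxo member best known from brain, had the largest called difference of the family. Its levels were 3.38, 1.14, -4.14, -4.84 and -1.17 (chr4:119707061-119707120, mm7), detected on all arrays but 10F. Both HPC lines were high, although 2.24 apart, both iHPC arrays were low, and NPC lay between without overlap. Against HPC the iHPC mean dropped by 6.75 ± 0.89 (SE), 108-fold (limma adjusted p = 0.0473), and the difference was -7.10 or -6.40 with 9F or 10F left out (adjusted p = 0.258 and 0.289). It was -5.63 without HB1, -7.87 without HNG2 and -5.03 under normexp correction (limma adjusted p = 0.0390 for normexp). iHPC minus NPC was -3.32 ± 1.09 (adjusted p = 0.188) and HPC were higher than NPC by 3.43 ± 1.09 (adjusted p = 0.118), neither called.

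The other Foxo genes had no called difference. Foxo1, the main insulin-regulated Foxo factor of liver, was detected on all arrays at 2.21, 1.72, 1.88, 1.98 and 1.90, and its group differences were between -0.03 and 0.07. Foxo3 was at -4.37, -4.22, -4.88, -5.01 and -4.33. For iHPC against HPC this probe gave -0.64 (limma adjusted p = 0.152), and a second Foxo3 probe, undetected in iHPC and NPC, was at least 1.62-fold lower (adjusted p = 0.135). The widest Foxo4 difference was -0.74, for HPC against NPC.

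Genes named as Foxo targets, 20 of 20 tested, gave 2 higher and 1 lower in iHPC against NPC, 4 higher and 0 lower against HPC, and 1 higher and 5 lower in HPC against NPC. The shares of all genes called higher and lower were 2.8% and 2.85%, 3.55% and 1.88%, and 6.68% and 8.98%. The list's medians were 0.05, 0.94 and -0.52, against 0.03, 0.05 and -0.03 over all genes. Against HPC, Igfbp1 rose by 5.27 in iHPC, Txnip, the thioredoxin-binding protein, by 2.63 and Fbxo32, a ubiquitin ligase, by 2.08 (limma adjusted p = 0.0183, 0.0224 and 0.0300). Trim63, a muscle ubiquitin ligase, was detected on the 9F and NPC arrays alone. Its iHPC mean was 2.70-fold above the HPC detection floor (fitted 3.57, adjusted p = 0.0319). That mean includes the other iHPC array, which was not detected, so the value is not a bound. Trim63 passed the detection filter through NPC alone, and it was also lower in HPC than in NPC (-6.08). Both of its calls are counted above and are given as a description. Against NPC, Igfbp1 was at least 227-fold higher, Pdk4, which restrains pyruvate oxidation, rose by 5.14 and Sesn3, a stress-induced regulator of mTORC1, fell by 2.29. Igfbp1 stands on the Foxa and the Foxo list. Of 17 insulin and Akt pathway genes tested, Pik3cb, a catalytic subunit of PI3-kinase, rose by 2.04 against NPC and 0 were called against HPC, where the list's median was 0.05 beside 0.05 for all genes (limma). Between HPC and NPC, Pik3cb was higher by 2.21 and Sgk1, an Akt-related kinase, by 3.02.

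**Figure D4:**
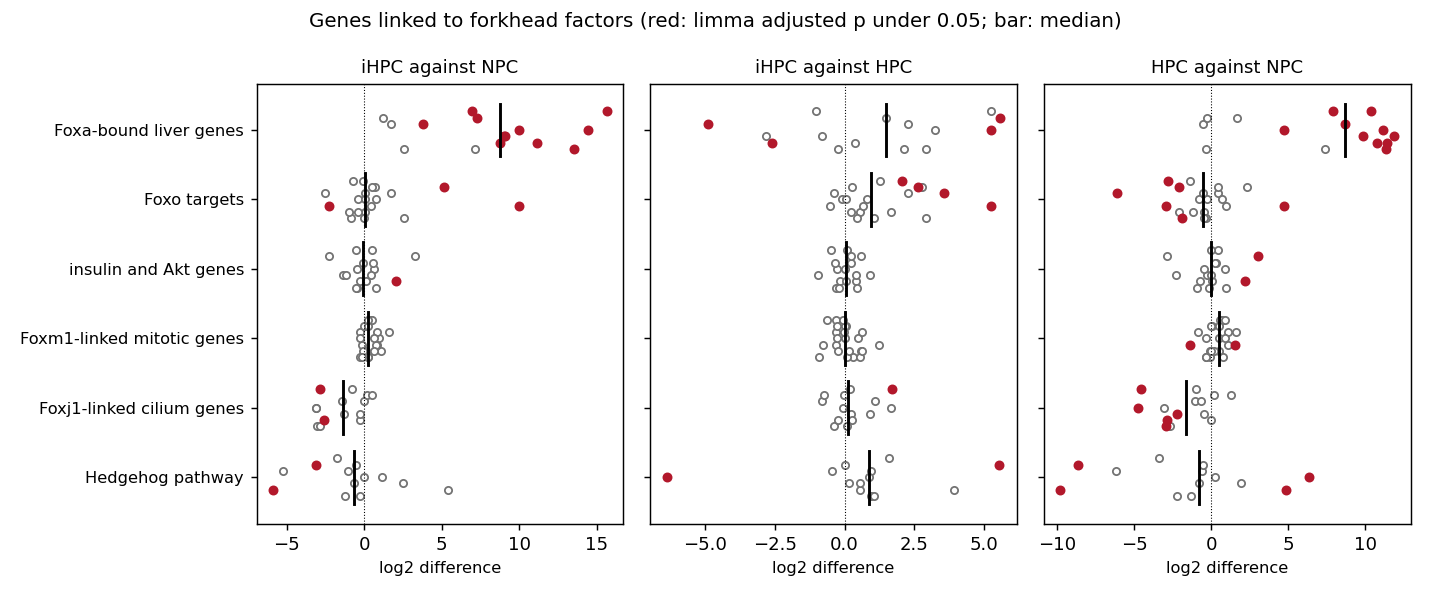
Log2 differences of the tested genes of 6 lists tied to forkhead factors by background knowledge, for the 3 comparisons. Each point is a gene, red points passed a limma adjusted p of 0.05, and the black bar is the list's median. The Foxa-bound liver genes had medians of 8.77 and 8.70 against NPC, and the mitotic and insulin lists had medians between -0.08 and 0.48.

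Foxc1, Foxf2 and Foxq1 lie next to each other on chromosome 13, with no protein-coding gene between them in RefSeq, and did not share a direction. Foxc1, a factor of mesenchyme and neural crest derivatives, gave -1.99, -0.84, -0.74, -0.94 and 2.50 (chr13:31174935-31174994, mm7), detected throughout. NPC was the high array, and HPC and iHPC overlapped. HPC minus NPC was -3.91 ± 0.57 (SE), 15.1-fold lower (limma adjusted p = 0.0326), and the adjusted p was 0.116 with 9F or 10F left out. iHPC minus NPC was -3.34 ± 0.57 (adjusted p = 0.0680). The mesenchymal markers were highest on the same array, with 197.0 times the 75th percentile on NPC, and their part in the Foxc1 difference was not tested. Neural crest markers ran the same way, with all 3 detected on every array and summed signals of 0.89 and 2.39 in HPC, 4.06 and 3.76 in iHPC and 23.3 in NPC. Snai2 was the highest of the 3 on each array (4.40 on NPC), and Sox10 lay between -5.19 and -3.99. Tfap2a alone was called, lower in HPC than in NPC (-5.71, limma adjusted p = 0.0255), where 8.98% of all genes were lower.

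Foxf2, a mesenchymal factor of gut and palate that answers to Hedgehog signals, ran the opposite way at 1.66, 2.16, -0.13, 0.22 and -2.43 (chr13:30996817-30996876, mm7). The groups were ordered HPC, iHPC, NPC without overlap, and the gene was detected on every array. HPC were higher than NPC by 4.34 ± 0.35 (SE), 20.2-fold (limma adjusted p = 0.0144, and 0.0774 with 9F or 10F left out). iHPC minus NPC was 2.47 ± 0.35 (adjusted p = 0.0519) and iHPC minus HPC -1.86 ± 0.29 (adjusted p = 0.0603), so the middle position did not pass on either side. The neighbour Foxq1, named here after its values were seen, gave -0.19, 1.76, 0.33, 0.25 and -0.90, with HB1 and HNG2 on either side of iHPC and no call.

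Among the mesenchymal Foxc and Foxf genes of chromosome 8, Foxf1 has 1 protein-coding gene between it and Foxc2, and Foxl1 follows Foxc2 directly. Foxc2 gave -6.84, -2.65, -3.87, -4.48 and -3.07. HB1 was the only array without a detected signal, and the gap of 4.18 to HNG2 was the widest within a pair among the 32 tested genes. Foxf1 was detected on 9F alone at -5.28, and Foxl1 on none. The Foxc2 difference of iHPC against HPC was 0.57 (limma adjusted p = 0.844), and it changed to -1.52 without HB1 and to 2.67 without HNG2.

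Hedgehog pathway genes, which lie upstream of Foxf and Foxc genes in several tissues, moved in both directions. Of 13 tested, 2 fell in iHPC against NPC, the co-receptor Boc (-5.86) and the transcription factor Gli2 (-3.08; limma adjusted p = 0.0472 and 0.0467). Against HPC, Gli2 was at least 11.7-fold higher and the ligand Dhh fell by 6.39 (adjusted p = 0.0196 and 0.0183). Between HPC and NPC, Dhh was higher in HPC by 6.37 and the ligand Ihh at least 7.87-fold, while Boc was at least 478-fold lower and Gli2 at least 99.4-fold lower. Of all genes 5.65%, 5.43% and 15.7% were called in these comparisons. The medians were -0.67, 0.86 and -0.82, against 0.03, 0.05 and -0.03 over all genes.

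Foxd1, a factor of kidney stroma and of forebrain and retina, stood furthest of all members above the other groups in iHPC, and did not pass the test. Its levels were -3.84, -6.66, -0.12, -0.10 and -6.12 (chr13:95426276-95426335, mm7), detected on HB1, 9F and 10F. Both iHPC arrays were high and within 0.02 of each other, and no other array overlapped them. A second probe, at chr13:95426359-95426418, gave -5.04, -7.51, -0.46, -0.45 and -5.90 and was detected on the same arrays. iHPC were at least 44.9-fold higher than NPC (fitted 6.01 ± 1.30, limma adjusted p = 0.101) and higher than HPC by 5.14 ± 1.06 (adjusted p = 0.0890). HB1 and HNG2 differed by 2.82, which enters the error of both comparisons. Leaving out HB1 or HNG2, or taking scan day as a block, could not change the difference from NPC, since no HPC array enters it. Against HPC the difference was 6.55 without HB1 and 3.73 without HNG2. On the slide that 10F shared with NPC the difference from NPC was 6.02. Under normexp correction it was 3.03 from NPC, less than the bound, and 3.18 from HPC, and both passed (limma adjusted p = 0.0214 and 0.0138). Foxd1 passed the detection filter through iHPC alone, so these values are given as a description.

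The other Foxd genes were dim. Foxd3, a factor of neural crest and pluripotent cells, gave -5.02, -5.96, -7.20, -7.12 and -7.42 and was detected in HPC alone, at least 1.07-fold higher than NPC (fitted 1.93, limma adjusted p = 0.0802). Foxd4, which was not tested, stood at -8.10, -3.56, -7.69, -7.21 and -7.51, with HNG2 as the only detected array. Foxd2 was detected throughout, with a widest difference of -0.82, for HPC against NPC. The pluripotency markers were near the floor on all arrays, with summed signals of 0.013 to 0.093 times the 75th percentile.

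Several members detected in the neural line were low elsewhere or uneven. Foxb2 gave -8.27, -7.36, -7.97, -7.47 and -4.81, detected on NPC alone (chr19:16573258-16573317, mm7). HPC were at least 2.83-fold lower than NPC (fitted -3.01 ± 0.52, limma adjusted p = 0.0441; -1.03 under normexp correction) and iHPC at least 1.54-fold lower (adjusted p = 0.0724). With 9F or 10F left out the adjusted p between HPC and NPC was 0.143, and it ran from 0.0518 to 0.0754 under quantile normalization, median centring, normexp correction, no filter and an intensity trend. Foxi2, of the Foxi class, gave -7.11, -7.38, -6.26, -4.82 and -4.99, detected on 10F and NPC, and was at least 2.49-fold lower in HPC than in NPC (adjusted p = 0.116). Between 9F and 10F it differed by 1.44, the widest gap within the iHPC pair among the 32 genes.

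Foxp2, a factor of brain circuits, gave -5.43, -6.30, -6.51, -5.09 and -4.91, and was not detected in iHPC. Foxp1 was detected throughout between 2.27 and 2.96, and NPC was the highest array without a call.

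Foxj1, which switches on the genes of motile cilia, was low and not detected in iHPC, at -5.66, -4.84, -5.60, -5.70 and -4.58. It was at least 1.76-fold lower in iHPC than in NPC (limma adjusted p = 0.259), and the difference was -0.19 under normexp correction. Of 14 tested motile cilium genes, 2 fell against NPC, Zmynd10 (-2.87) and Rsph9 (-2.60), both at a limma adjusted p of 0.0301, where 2.85% of all genes were lower. Against HPC, Zmynd10 rose by 1.71 (adjusted p = 0.0368), and 5 of the 14 were lower in HPC than in NPC, where 8.98% of all genes were. Those 5 were Tekt1 (-4.77, detected on HNG2 but not HB1), Zmynd10 (-4.58), Rsph9 (-2.88), Spag6 (-2.20) and Rsph1, at least 6.31-fold. Rsph1 was detected on NPC alone and passed the detection filter through it, so its call is given as a description. Foxl2, a factor of ovary and pituitary, gave -4.19, -4.18, -5.42, -4.95 and -4.84 and was not detected in iHPC. Its difference between iHPC and HPC was -0.998 (limma adjusted p = 0.119), and 0.062 under normexp correction.

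Foxm1, the mitotic forkhead factor, was among the steadiest members at 1.93, 2.13, 2.51, 2.55 and 2.05. iHPC lay above both other groups by 0.49 and 0.50, without a call (limma adjusted p = 0.330 and 0.216). Its linked mitotic genes, 23 of 23 tested, gave 0 calls in iHPC against NPC and 0 against HPC by limma, with medians of 0.26 and 0.00030. Between HPC and NPC, Lin54 was higher in HPC by 1.51 and Cdc25b lower (-1.37). Of all genes 5.65%, 5.43% and 15.7% were called in these 3 comparisons. Cdc25b is a phosphatase that starts mitosis and Lin54 a DNA-binding subunit of the complex that works with Foxm1.

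Foxj3 gave 1.64, 1.27, 2.48, 2.52 and 2.40, with both HPC lines lowest, and its difference of 1.04 between iHPC and HPC did not pass (limma adjusted p = 0.0971). A second Foxj3 probe was dim and uneven, at -6.83 on HB1 and -3.93 on HNG2. Another 16 tested genes outside the rule for named genes, chosen neither by a call nor by an on-off pattern, held 15 that were detected on all arrays. Their differences ran from -0.76 (Foxp4) to 1.19 (Foxq1) against NPC, from -0.64 (Foxo3) to 0.83 (Foxk1) against HPC, and from -1.25 (Foxn3) to 1.69 (Foxq1) between HPC and NPC. The lowest adjusted p among them was 0.0662, for Foxn3 between HPC and NPC (limma). Foxh1, a Smad partner in nodal signalling, was level at 1.36, 0.90, 1.24, 0.98 and 1.25.

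Probes of a gene did not always agree. Foxk2 had 4 probes, and the main one gave 2.09, 1.87, 2.27, 2.22 and 1.39. Another Foxk2 probe was detected in HPC alone at -2.73 and -3.65, with -7.86, -7.35 and -7.70 on the other arrays, and was at least 4.73-fold lower in iHPC than in HPC, where the main probe gave a difference of 0.27. The remaining Foxk2 probes gave -0.22 and -0.20. For genes with several tested probes, only the probe with the highest mean entered the test, except that both Foxo3 probes did, under the names Foxo3 and Foxo3a, and the brighter one was counted.

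The pairs differed in how closely their arrays matched. HB1 and HNG2 differed by a median of 0.49 in size over the 32 genes, against 0.53 over all genes, and 3 genes, Foxc2, Foxd1 and Foxo6, were apart by 2 or more, where the background was 8.6%. Between 9F and 10F the median was 0.22 against 0.15, and 0 genes were apart by 2 or more, where the background was 0.73%. The fit shares a gene's spread over the groups, so the gap between HB1 and HNG2 enters the standard error of all 3 comparisons.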

How the data were processed

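Per the labels' protocols, 0.25 µg of RNA from each of 5 lines was labelled with Cy3 and hybridised to a one-colour Agilent array. The deposited values are spot intensities, which Agilent Feature Extraction 10.7.3.1, per the file headers, corrected for background and spatial trend. The deposited series matrix holds the same intensity on every spot of each array. A deposited flag marks spots that are well above background. From these, log2 was taken and the array's 75th percentile over unflagged non-control spots subtracted (590.3 to 1074 in signal units). Spots of a probe were averaged, and probes detected on every array of at least 1 group were kept, the brightest per gene, giving 19308 genes. Groups came from the labelled cell type. All genes were tested together, two-sided, with lmFit and eBayes of limma 3.58.1 (R 4.3.3) over 3 groups with 2 residual degrees of freedom, and p-values were Benjamini-Hochberg adjusted.

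The fit was tested on simulated data. Alternatives were other normalizations, background correction, filters, probe summaries, variance models, blocks and left-out arrays. Figures were drawn with matplotlib 3.10.9. The members, gene lists and rules were chosen with earlier results of these data known. The rule for named genes took members called in a comparison, members detected on every array of a group and none of another, and members whose paired arrays were apart by 2 or more on the log2 scale, with up to 4 called genes of each list. Foxq1, Foxm1, Foxo1, Foxo3, Foxh1, Foxk2 and Foxp1 were added after their values were seen. A few genes that were fitted and counted are not reported here by name.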

Additional observations from a re-analysis of the deposited data

How the results depend on the processing

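The 7 called differences of forkhead genes had 70 alternative values whose difference or standard error was unlike the fit reported and each other. All kept their direction, and 49 passed the limma threshold. Each of these genes had 1 probe, so other filters, probe means or variance models changed the standard error alone and could not change a direction. Foxb2, among the 7, had to differ through the filter. Of 424 such values of differences that were not called, 61 passed and 23 changed sign. No paired analysis was possible because the labels give the arrays no replicate numbers. Slide and scan day as random blocks were not run, since their correlation could not be estimated from 5 arrays in 3 groups. The deposited series matrix gave the same calls.

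For iHPC against NPC, 1 gene was called in the fit reported, 2 with quantile normalization, 4 with normexp correction, 0 without a filter on dim probes, 2 with the mean of a gene's probes, 3 with an intensity trend, and 12 on only the groups compared or with scan day as a fixed block. Leaving out an array gave 0 to 12. The shares of all genes in the same order were 5.65%, 8.07%, 7.32%, 1.06%, 6.11%, 7.01% and 35%, and 0% to 35% with an array left out. For iHPC against HPC, where 3 were called, 1 was called without a filter, 1 when probes had to be detected on every array, and leaving out an array gave 0 to 14, against 5.43%, 1.6%, 4.09% and 0% to 36.2% of all genes. For HPC against NPC, where 3 were called, 5 were called with quantile normalization, 5 with median centring, 5 with normexp correction, 1 without a filter, 6 with the mean of probes, 6 with an intensity trend and 0 on only the groups compared, and leaving out an array gave 0 to 19, against 15.7%, 18.1%, 17.4%, 24.6%, 5.71%, 16.7%, 21.5%, 0% and 0% to 50.6% of all genes. At an unadjusted p under 0.05 that fit on only the groups compared held 3889 of 19308 genes, and limma called 0 of them after adjustment. Median centring moved the median of all genes to 0.29 for HPC against NPC and to -0.20 for iHPC against HPC, and normexp correction to -0.19 and 0.18.

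Signs changed for these differences, none of them called in the fit reported. With quantile normalization, Foxb2 was at -0.65 and Foxp2 at -0.25 in iHPC against HPC. With median centring, Foxb2 was at -0.16 and Foxp2 at -0.18 there, and Foxm1 at 0.30 between HPC and NPC. With normexp correction, Foxd1 was at -0.15, Foxd3 at -0.064 and Foxl2 at -0.23 between HPC and NPC, and Foxd3 at 0.16, Foxj1 at 0.36 and Foxl2 at 0.062 in iHPC against HPC. The mean of its probes put Foxj3 at -0.17 in iHPC against NPC. The causes were not tested. Leaving out an array also changed signs, by range in iHPC against HPC for Foxb2 (-0.36 to 0.54), Foxc2 (-1.52 to 2.67), Foxj1 (-0.81 to 0.017), Foxp2 (-0.64 to 0.77) and Foxq1 (-1.48 to 0.48), between HPC and NPC for Foxc2 (-3.77 to 0.42), Foxd1 (-0.54 to 2.28) and Foxm1 (-0.11 to 0.085), and in iHPC against NPC for Foxi2 (-1.26 to 0.18). Without HNG2 or HB1, the remaining HPC array was assumed to vary like the iHPC pair.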
